A study of Homo sapiens with 2 samples.

Results

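The 6 genes described here, DDIT4, TXNIP, ATF3, ARRDC3, VLDLR and STC2, are known to respond to nutrient supply or to stress. They were taken by gene name from the files of both samples of the series, and every row of these names that carried a number was used. They are 6 of the 9253 names with a value. The samples are 2 RNA libraries of 95D, a human lung cancer cell line labelled WT for genotype. The cells had 24 h of complete medium and then 48 h of glutamine-free medium (1 library, called glutamine-free) or of glucose-free medium (1 library, called glucose-free), each with 10% dialyzed serum. The labels give 1 library per condition and no library from complete medium. The series' title and design text speak of an immunoprecipitation with an antibody against ALKBH5, a demethylase of m6A in RNA, and of a total RNA input, but neither sample's label says which of these its library is. With 1 library per condition, differences between the libraries could not be checked against replicates, and no p-value was computed. With no fed cells among the samples, the values do not show what a gene did on deprivation.

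Cells read a shortage of amino acids through the kinase GCN2, and stress of the endoplasmic reticulum, which lack of glucose can cause, through the kinase PERK. Both phosphorylate the initiation factor eIF2, which slows most protein synthesis and favours translation of the transcription factor ATF4. DDIT4, ATF3, VLDLR and STC2 are known targets of this integrated stress response. TXNIP follows another route: its transcription is known to be switched on by glucose through the factors MondoA and ChREBP with their partner MLX, and its protein limits glucose uptake. ARRDC3 belongs with TXNIP to the alpha-arrestins, adaptor proteins that help remove receptors and transporters from the cell surface.

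All 6 names were above 0 in the glutamine-free library and each had a listed 0 in the glucose-free library. In the glutamine-free library their values ran from 6.31 for STC2 to 984 for DDIT4. A value behaves as a number of reads multiplied by 1 factor per library, and it was summed here over the transcript rows of a name and not divided by transcript length. Being listed at 0 without glucose was the common state of the names in these files, since 4.25% of the 9253 names (393) were above 0 in that library. In these files a row carried a number only where it was above 0 in at least 1 library, so a name listed at 0 without glucose and holding a number had to be above 0 without glutamine. The split of all 6 names is therefore no sign of a difference particular to these genes.

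The promoters of the 3 names with the most reads, DDIT4, TXNIP and ATF3, are shown because their known regulators are the link between these genes and nutrient supply. The sequences are those of RefSeq on GRCh38.p14 and run from 250 bases before to 50 bases after the gene's start, 5′ to 3′ on the gene's strand. RefSeq's table held a promoter for all 6 members. DDIT4 lies on the plus strand, with its window at chr10:72273674-72273973. TXNIP lies on the minus strand, with its window at chr1:145996530-145996829, and ATF3 on the plus strand at chr1:212565157-212565456. TXNIP and ATF3 each have another start in the table, and the files do not say from which start their rows came. Capitals mark matches, on either strand, to the motifs searched, which are spelled out after the sequences.
DDIT4: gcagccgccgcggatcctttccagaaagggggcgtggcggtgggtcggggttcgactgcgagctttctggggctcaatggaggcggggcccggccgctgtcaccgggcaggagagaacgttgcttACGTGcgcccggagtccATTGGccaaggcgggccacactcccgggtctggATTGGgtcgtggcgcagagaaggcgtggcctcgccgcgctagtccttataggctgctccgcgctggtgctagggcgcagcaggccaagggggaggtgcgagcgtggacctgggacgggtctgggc
TXNIP: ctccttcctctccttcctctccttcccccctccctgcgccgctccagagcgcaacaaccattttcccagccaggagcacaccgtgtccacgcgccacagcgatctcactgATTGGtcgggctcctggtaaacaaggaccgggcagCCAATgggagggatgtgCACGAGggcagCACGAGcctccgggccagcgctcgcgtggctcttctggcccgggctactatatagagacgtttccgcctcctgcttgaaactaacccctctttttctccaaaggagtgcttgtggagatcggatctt
ATF3: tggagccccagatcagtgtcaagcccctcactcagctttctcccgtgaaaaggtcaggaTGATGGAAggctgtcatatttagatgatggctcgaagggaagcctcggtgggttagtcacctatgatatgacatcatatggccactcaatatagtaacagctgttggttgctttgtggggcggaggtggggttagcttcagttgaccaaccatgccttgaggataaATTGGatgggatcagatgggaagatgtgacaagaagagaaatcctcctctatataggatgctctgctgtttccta

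The motifs searched were TGACGTCA, the cyclic AMP response element (CRE), TGATGNAA, a core of the element bound by ATF4 with C/EBP factors (CARE), CACGTG, the E-box, alone and as a pair 5 bases apart, and TATAAA, the TATA box. CACGAG, alone and as a pair 5 bases apart, ACGTG, the core of the hypoxia response element and part of the E-box, and CCAAT were added after the sequences had been read. TXNIP holds the pair of CACGAG, from 88 to 72 bases before its start, and this is the carbohydrate response element known for the gene. The same pair was found in 2 of the 35116 promoters of 300 bases in the table. TXNIP also holds CCAAT on both strands, a motif present in 34.6% of all promoters. In DDIT4 the matches were 1 ACGTG, present in 21.4% of promoters, which overlaps no other match, and 2 CCAAT on the minus strand. The first window of ATF3 holds 1 CARE core, TGATGGAA, a motif found in 3.62% of promoters, and 1 CCAAT on the minus strand. The window of its other start, chr1:212614768-212615067, is not shown and holds no CARE core. That window holds the only TATA box letters in the windows of the members, a motif found in 11.5% of promoters. The CARE core was found in no window of DDIT4, VLDLR, STC2, TXNIP or ARRDC3. CRE and E-box letters, found in 1.85% and 7.26% of promoters, occurred in none of the windows of the members, which says only that these letters are not there. These matches describe the sequence and show no binding in these cells.

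DDIT4 encodes REDD1, which holds back the growth kinase complex mTORC1 through the TSC1 and TSC2 proteins. Its gene spans chr10:72273924-72276036. Both of its transcript rows carried a number, 549.8 and 434.3 in the glutamine-free library and 0 and 0 in the glucose-free library. The sum of 984 in the glutamine-free library rested on 1244 reads, with an exact 95% Poisson interval of 930.1 to 1040 on the scale of the values, and stood against a listed 0 in the glucose-free library. The larger row held 55.9% of the reads (95% Wilson interval 53.1 to 58.6%). The rows held 695 and 549 reads, a ratio of 1.27 (exact interval 1.13 to 1.42), so neither dominated the sum. Here and below, sums, shares and intervals take the rows of a name to hold separate reads, which could not be checked. DDIT4 ranked 46th among the 9253 names in the glutamine-free library. It held 79.0% of the 1575 reads of the members. Of the 46 names at or above its value, 24 were listed at 0 in the glucose-free library as DDIT4 was.

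TXNIP, the thioredoxin-interacting protein, spans chr1:145992435-145996579 on the minus strand. Its 2 rows stood at 154 and 6.31 in the glutamine-free library and at 0 and 0 in the glucose-free library. In contrast to DDIT4, nearly all of its 203 reads in the glutamine-free library fell on 1 row, which held 96.1% of them (92.4 to 98.0%). The ratio of the larger row to the smaller was 24.4 (exact interval 12.1 to 57.3), and the smaller rested on 8 reads. The sum was 161 (139 to 184) in the glutamine-free library against a listed 0 in the glucose-free library. TXNIP stood above 90.8% of all names in the glutamine-free library. Of the 848 names at or above its value, 698 were likewise listed at 0 without glucose.

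ATF3, a bZIP repressor that is itself induced by ATF4 and many other stresses, spans chr1:212565407-212620777. Its only row stood at 57.7 in the glutamine-free library (73 reads, interval 45.2 to 72.6) and at 0 in the glucose-free library. It lay above 74.3% of all names in the glutamine-free library. ATF3 was thus the last of the members to exceed the median of all names, 20.5, in that library.

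The remaining members had few reads. ARRDC3, an adaptor of NEDD4-type ubiquitin ligases at chr5:91368631-91383317, had 3 rows, of which 1 carried a number, 19.8 in the glutamine-free library (25 reads, 12.8 to 29.2) and 0 in the glucose-free library. VLDLR, a receptor for lipoproteins and for reelin at chr9:2621787-2660056, had 16 rows, of which 1 carried a number, 17.4 in the glutamine-free library (22 reads, 10.9 to 26.3) and 0 in the glucose-free library. STC2, a secreted glycoprotein that inhibits the protease PAPPA, at chr5:173314723-173328414, had 1 row, at 6.31 in the glutamine-free library (8 reads, 2.71 to 12.5) and at 0 in the glucose-free library. ARRDC3 and VLDLR lay just below the median of all names and STC2 above 16.9% of them. ARRDC3 and VLDLR were not distinguishable in reads (ratio 1.14, exact interval 0.615 to 2.11), whereas every other pair of neighbours in the order DDIT4, TXNIP, ATF3, ARRDC3, VLDLR, STC2 differed beyond counting error, the narrowest being VLDLR over STC2 at 2.75 (1.18 to 7.14). This order is one of reads and not of transcripts per cell, since the length of the rows is not given. Intervals cover counting error only. RefSeq places ARRDC3-AS1, at 25.3 in the glutamine-free library and 0 in the glucose-free library, over part of ARRDC3, and VLDLR-AS1 over part of VLDLR; whether counting used the strand is not given in the sources used here, so reads of such pairs cannot be told apart.

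**Figure D1:**
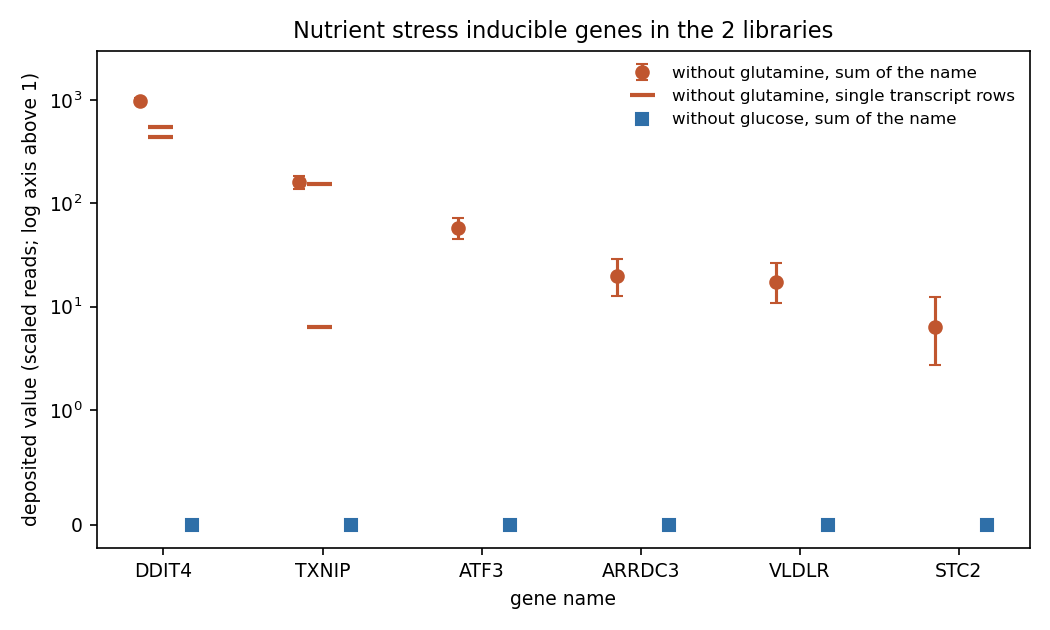
Deposited values (vertical axis, scaled reads, logarithmic above 1) of the 6 gene names (horizontal axis) in the glutamine-free library (circles with exact 95% Poisson intervals, dashes for the rows of names with more than 1 row) and the glucose-free library (squares). The circles run from 984 for DDIT4 to 6.31 for STC2, and every square lies at 0.

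Of the 25 rows listed under these names, 8 carried a number and the other 17 a mark in its place, 15 of them under VLDLR. Over the whole file 20.3% of 91835 rows carried a number. All 6 genes are protein-coding in RefSeq, but the files head the column of names as those of long non-coding RNA genes and give no transcript identifiers. The values are thus those of the listed rows, and whether they hold reads of the messenger RNA of these genes cannot be told.

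The depth behind the zeros differed between the members. The glutamine-free library held 1442572 reads over the listed rows and the glucose-free library 42827, as recovered from the equal steps between low values. At its share of the reads without glutamine, 0.0862% (Wilson interval 0.0816 to 0.0912%), DDIT4 would amount to 36.9 reads in a library of the size of the glucose-free one. TXNIP would amount to 6.03 reads, ATF3 to 2.17, ARRDC3 to 0.742, VLDLR to 0.653 and STC2 to 0.238. For the 4 names under 3 reads a lower level in the glucose-free library was not detectable with so few reads over the listed rows. Their zeros are not read as a level in either direction. For DDIT4 and TXNIP the 0 lay below these amounts, but so did the zeros of the housekeeping genes ACTB and GAPDH, which would amount to 29.96 and 30.4 reads and were listed at 0 as well. Of the 1794 names whose share would amount to 3 or more reads, 11.6% (208) were above 0 in the glucose-free library.

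**Figure D2:**
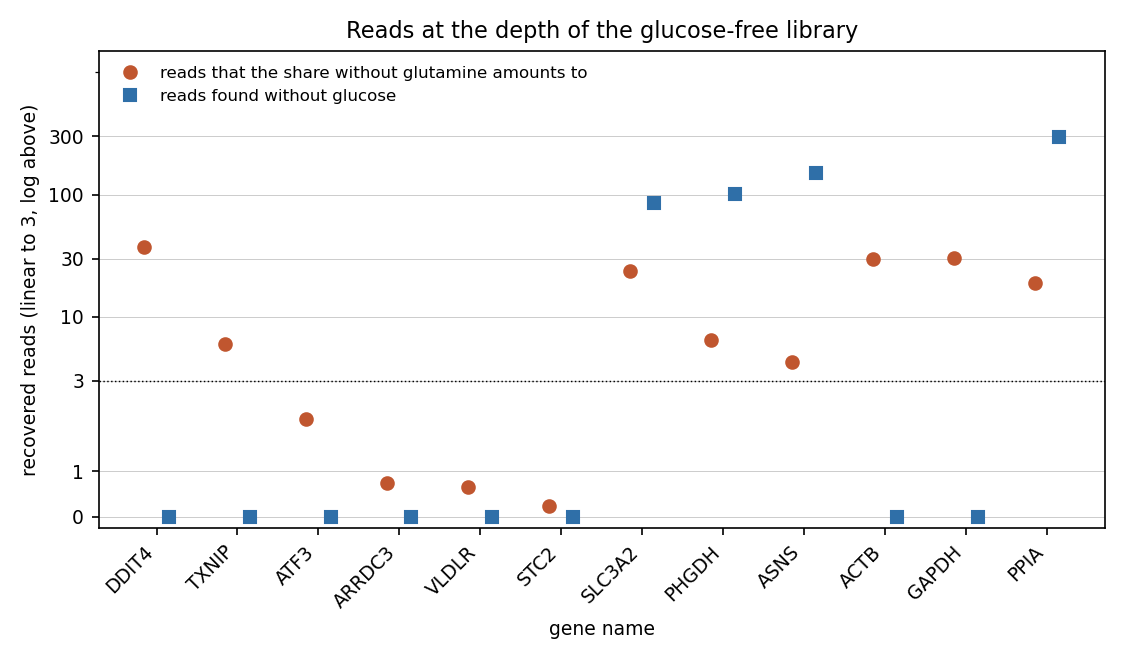
Recovered reads (vertical axis, linear to 3 and logarithmic above) for the 6 members, the 3 integrated stress response targets with the most reads without glucose, and 3 reference names (horizontal axis). Circles give the reads that a name's share of the glutamine-free library amounts to at the depth of the glucose-free library, squares the reads found there, and the dotted line 3 reads. All 6 members, ACTB and GAPDH lie at 0 reads found, while SLC3A2, PHGDH, ASNS and PPIA have 86, 101, 149 and 298.

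The names that were seen in the glucose-free library were mostly well above the lowest count. Their median was 81 reads, 341 of the 393 had 10 or more and 52 had fewer. Because few names stood between 0 and such values, a listed 0 there is not read as a low level, and no upper limit is given for it. Among the 9211 names above 0 in the glutamine-free library, those with higher values there were seen more often without glucose. The other 42 names were at 0 without glutamine and, since they carried a number, all of them were above 0 without glucose. Of names above 0 and under 10 in the glutamine-free library, the class of STC2, 1.23% were above 0 without glucose. It was 1.33% from 10 to under 20, the class of ARRDC3 and VLDLR, and 3.84% from 50 to under 100, that of ATF3. TXNIP belonged to a class from 100 to under 200 with 7.54%. Of the 159 names at 500 or more, the class of DDIT4, 62 (39.0%) were seen. In every one of these classes most names were at 0, as the members were.

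**Figure D3:**
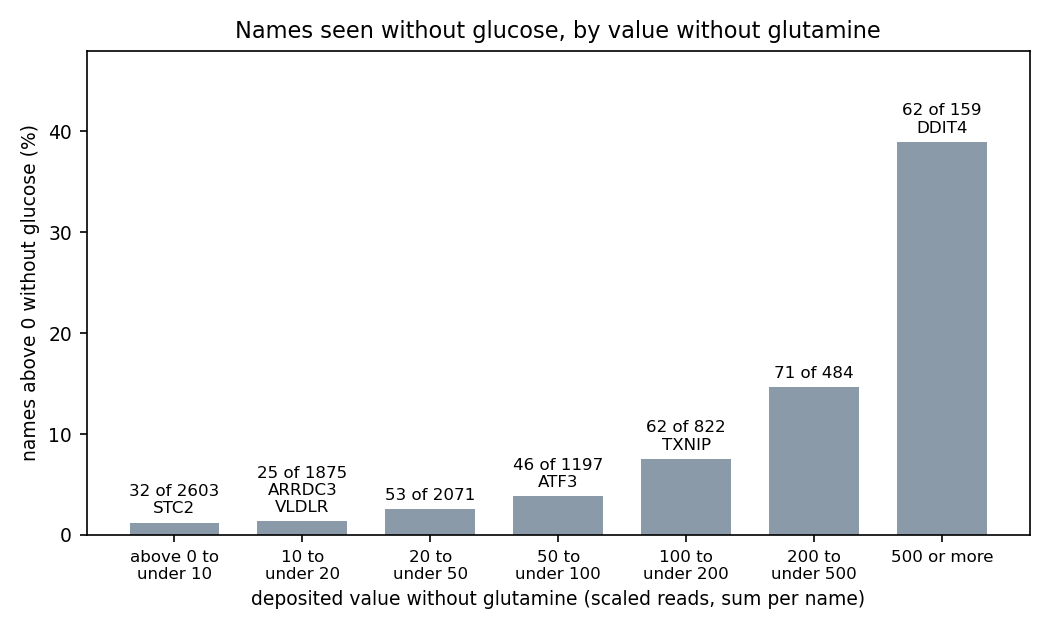
Percentage of names above 0 in the glucose-free library (vertical axis) by class of the deposited value in the glutamine-free library (horizontal axis, scaled reads, summed per name), for the 9211 names above 0 in that library. Numbers over the bars are names above 0 of names in the class, with the members that fall in it; the bars climb to 39.0% for the class of DDIT4 and stay under 50% throughout.

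On the log2(value + 1) scale, the glutamine-free library was at least 2-fold higher for all 6 members, as it was for 97.4% of all names (9008). The median log2 ratio, glutamine-free minus glucose-free, was 5.13 for the members and 4.32 for all names. With a listed 0 on one side, both medians carry the value in the glutamine-free library and the pseudocount, and no fold is given for a name. With each library rescaled to the same sum and 3 reads put in place of each 0, which was chosen with the values known, 1 of the 6 members (DDIT4) was at least 2-fold higher, against 7.71% of all names (713). The median of the members was then -1.22, and 68.7% of all names (6355) were at least 2-fold lower in this setting. For a name listed at 0, the call only asks whether its rescaled glutamine-free value lies at least 2-fold above 70.4, which 3 reads equal. The call of DDIT4 is therefore no result about a difference between the libraries.

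The members' known pathways were described through 8 lists with 164 entries. The targets of the amino acid and integrated stress response, the pathway of DDIT4, ATF3, VLDLR and STC2, included some names that were seen without glucose. Of 34 targets, 14 carried a number and 5 (35.7%) were above 0 in the glucose-free library, against 4.25% of all names and none of the members. The list stood higher than most names, with a median of 138 in the glutamine-free library against 20.5 for all names. At their share without glutamine 10 of the 14 would amount to 3 or more reads in the glucose-free library. Of these 10, 4 were above 0 there, against 11.6% of all names with 3 or more such reads. Of the 6 members only 2 would amount to 3 or more reads, so they are no like comparison for this list. No test of these differences was made, and the lists were chosen with earlier results of these data known. SLC3A2, the heavy chain of amino acid exchangers, stood at 630 in the glutamine-free library and at 109 in the glucose-free library. ASNS, asparagine synthetase, stood at 114 without glutamine and 188 without glucose, and PHGDH, the entry enzyme of serine synthesis, at 172 and 128 in that order. SLC1A4, a neutral amino acid transporter, stood at 83.8 without glutamine and 27.8 without glucose, and ERO1A, an oxidase of the endoplasmic reticulum, at 18.2 and 5.10 in that order. As deposited, ASNS was thus lower without glutamine and the other 4 were higher there. With each library scaled to a sum of 1000000, all 5 were lower without glutamine: SLC3A2 came to 553 without glutamine and 2009 without glucose, ASNS to 99.8 and 3479, PHGDH to 150.4 and 2358, SLC1A4 to 73.5 and 514, and ERO1A to 15.9 and 94.2 in that order. The direction for SLC3A2, PHGDH, SLC1A4 and ERO1A therefore depends on the scaling. MTHFD2, a mitochondrial folate enzyme, had the next highest value after SLC3A2 without glutamine, 526, and VEGFA, the angiogenic growth factor, had 280.0; both had 0 without glucose. ATF4 itself, DDIT3 and TRIB3 were not among the names listed. As deposited, the glutamine-free library was at least 2-fold higher for 12 of the 14 and at least 2-fold lower for 0, against 97.4% and 1.42% of all names. After rescaling it was at least 2-fold higher for 9 of the 14, against 96% of all names. With rescaling and 3 reads in place of each 0 it was at least 2-fold higher for 4 and at least 2-fold lower for 6, against 7.71% and 68.7% of all names.

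The measured kinases and factors that start or adjust this response were at 0 without glucose, as most names were. Of 14 entries, 11 carried a number, and 0 of them were above 0 in the glucose-free library, against 4.25% of all names. At their share without glutamine 3 of the 11 would amount to 3 or more reads there, so this count is no result about the list. GCN1, the activator of GCN2, stood at 349 in the glutamine-free library, PPP1R15B, which directs the dephosphorylation of eIF2, at 86.2, and EIF2B4, a subunit of the exchange factor eIF2B, at 83.8. Of the kinases themselves, EIF2AK4 (GCN2) stood at 11.8 and EIF2AK3 (PERK) at 6.31 in that library. EIF2AK3 thus had the same 8 reads as STC2.

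Around DDIT4, 16 of 33 mTORC1 pathway names carried a number. Of these, 0 were above 0 in the glucose-free library, again beside 4.25% of all names. At their share without glutamine 6 of the 16 would amount to 3 or more reads there. ULK1, the autophagy kinase that mTORC1 restrains, stood at 1027 in the glutamine-free library, beside the 984 of DDIT4. TSC2 and TSC1, through which DDIT4 acts, stood at 440 and 118 there, FLCN at 325 and MTOR at 31.6.

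Around TXNIP and ARRDC3, 7 of 16 alpha-arrestin and partner names carried a number. ARRDC2, another alpha-arrestin, stood at 218 in the glutamine-free library, and TXNRD1 and TXNRD2, which reduce thioredoxin, at 175 and 100.4; all 3 were listed at 0 in the glucose-free library. WWP1, a ubiquitin ligase bound by alpha-arrestins, was the 1 name of the 7 above 0 there, beside 4.25% of all names. It had 1 read in each library. Of 12 names of carbohydrate-responsive factors and glucose entry, 8 carried a number and 1 was above 0 without glucose, again beside 4.25% of all names. A count of 1 name is no result about either list. The 1 name here was SLC2A3, which carries glucose into cells, at 547 in the glutamine-free library and 295 in the glucose-free library. Rescaled to the same sum it came to 480 without glutamine and 5440 without glucose, so its direction depends on the scaling. MLX, the partner of MondoA and ChREBP, stood at 105 without glutamine and at 0 without glucose. SLC2A1, the transporter whose uptake of glucose TXNIP limits, stood at 102 in the glutamine-free library, also with 0 in the other.

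For VLDLR, 7 of 21 names of its receptor family and partners carried a number, none above 0 in the glucose-free library. LRP8, the other reelin receptor, stood at 682 in the glutamine-free library, and LRP3 at 33.2. Of 26 bZIP factors related to ATF3, 8 carried a number and none was above 0 without glucose. XBP1, a factor of the unfolded protein response, stood at 283, MAFK at 193 and NFE2L2, the regulator of antioxidant genes, at 106 in the glutamine-free library. For STC2, 4 of 8 names carried a number and 0 were above 0 without glucose, with IGF1R at 216 and the proteases PAPPA2 at 91.7 and PAPPA at 7.89 in the glutamine-free library. With 4.25% of all names above 0 without glucose, these counts are no result about the lists either.

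**Figure D4:**
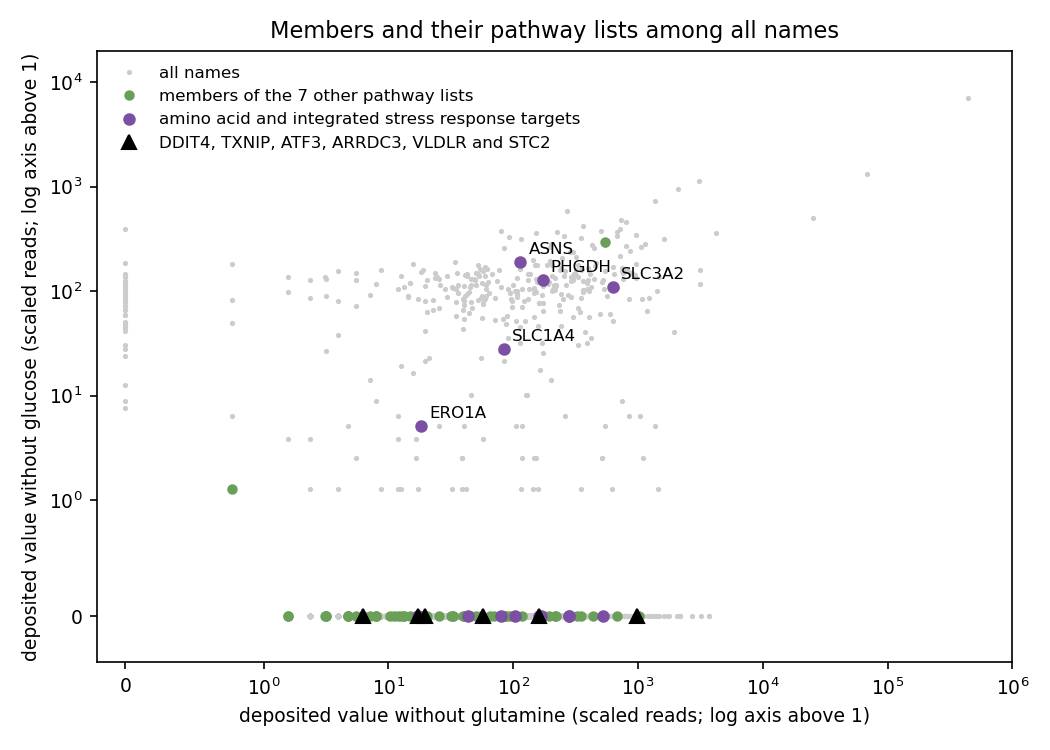
Deposited value in the glutamine-free library (horizontal axis) against that in the glucose-free library (vertical axis), both in scaled reads and logarithmic above 1, for all names (grey), the 8 pathway lists (coloured circles) and the 6 members (triangles). The members lie on the line at 0 without glucose, while ASNS, PHGDH, SLC3A2, SLC1A4 and ERO1A lie between 5.10 and 188.

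The names most like each member, by distance on the log2(value + 1) scale over the 2 libraries, were mostly ties. DDIT4 had as nearest names LARS1, the cytosolic leucyl-tRNA synthetase, at 983 and HSPA9, a mitochondrial chaperone, at 976 in the glutamine-free library, both listed at 0 in the other. TXNIP had LINC02693 and ADAMTS1, each at 161 and 0. For ATF3, 4 names with a RefSeq symbol had exactly its values, for ARRDC3 45, for VLDLR 62 and for STC2 123, so that nearness over 2 libraries separates none of these from many others.

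As to the libraries themselves, 4 of 9 epithelial markers carried a number, and 2 of these were above 0 in both libraries. KRT8 stood at 143 in the glutamine-free library and 199.8 in the glucose-free library and NAPSA at 18.9 and 161 in that order, while KRT18 and KRT19 stood at 75.1 and 42.6 without glutamine and were both at 0 without glucose. A listed 0 is not read as a level here, so KRT18 and KRT19 give no direction. EPCAM and CDH1 were listed without a number. Of 4 mesenchymal markers 3 carried one: FN1 stood at 963 without glutamine and 344 without glucose, and VIM and ZEB1 at 75.9 and 18.9 without glutamine and both at 0 without glucose. The values of the glutamine-free library summed to 21.1 times those of the glucose-free library, a wider gap than that of FN1. The direction for FN1 therefore depends on the scaling. The markers of leukocytes, endothelium and erythroid cells carried no number. Of these, CD68, CD14, PECAM1 and CDH5 were not among the names listed, and the others were listed without a number. As 20.3% of all rows carried a number, this is not read as absence of such cells. ALKBH5 stood at 11.8 in the glutamine-free library and was listed at 0 in the glucose-free library. The nuclear RNA MALAT1 was above 0 in both, at 68578 and 1308 in that order.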

How the data were processed

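Per the labels' protocols, total RNA of 95D cells was depleted of ribosomal RNA and sequenced paired-end. The submitters' processing notes name HISAT2 2.0.5, StringTie and hg38, without their roles; the counter, the annotation and the normalization are not named in the labels. One sample's description names the table column of the other, so each sample's own file was used. The deposited values have no stated unit. They behave as reads that the authors multiplied by 1 factor per library: low values climbed in steps of 0.791 (glutamine-free library) and 1.264 (glucose-free library), with fitted offsets of -0.018 and 0.022. Reads recovered with these were whole within 0.1 for 100% of values up to 1000 reads. Values under 1e-09 were set to 0. The whole-series table, identical in all 91835 rows, was left aside.

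Rows were summed per name, and ratios are log2(value + 1), glutamine-free minus glucose-free. No test was possible with 1 library per condition. Intervals are exact Poisson or Wilson at 95%. Members and lists were chosen with earlier results of these data known. Named besides the members were list members above 0 in the glucose-free library and the 3 highest of each list in the glutamine-free library. The 2 names nearest each member and a few reference names were named too. EIF2AK3, EIF2AK4, TSC1, MTOR and SLC2A1 were added with their values known. PPIA was added later and was not among the reference names first chosen. A few names within the rule are not reported here. Alternatives changed scaling, pseudocount (0.1), a minimum of 5, the transcript row used and the threshold (1.5-fold and 4-fold). The steps were tested on simulated data. Both simulated libraries were drawn at equal depth, so ratios against a listed 0 in a library with few reads were not covered. Python 3.11.15, numpy, pandas and scipy were used.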

Additional observations from a re-analysis of the deposited data

How the results depend on the processing

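With 1 library per condition no replicate could be left out. No paired analysis was possible because each condition has 1 library and no test was run. The settings were rescaling to 1000000, centring on the median of names above 0 in both libraries, recovered reads and a pseudocount of 0.1. Further ones were a minimum of 5, the largest transcript row and, for the 2-fold count, thresholds of 1.5-fold and 4-fold. The count of 0 members above 0 without glucose was fixed in advance, since none of these changes a listed 0. The count of 6 members at least 2-fold higher without glutamine also stayed the same. Against a listed 0 that call is nearly fixed too, as 97.4% of all names met it as deposited and 96% after rescaling. The unchanged counts are thus no support for either result. The median log2 ratio of the members, 5.13, became 4.52 with centring and 8.40 with a pseudocount of 0.1. It became 2.86 with 3 reads in place of 0 on the deposited scale. There the count of members at least 2-fold higher fell to 5, with STC2 at a log2 ratio of 0.60. With rescaling and 3 reads in place of 0 the count became 1 and the median reversed to -1.22, as did the log2 ratios of ATF3 (-0.47), ARRDC3 (-1.96), VLDLR (-2.14) and STC2 (-3.45), while TXNIP came to 0.99 and DDIT4 to 3.60. These signs come from the construction, since 3 reads in the glucose-free library equal 70.4 after rescaling to 1000000. ATF3, ARRDC3, VLDLR and STC2 held less than that in the other library. The ratios of DDIT4 and TXNIP, at 863 and 141 there after rescaling, rest on the same 70.4 and are no result either. Both settings with 3 reads were chosen after the data were seen. The 42827 reads over the listed rows of the glucose-free library limit every statement on names with few reads.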
